A study of Homo sapiens with 5 samples.

Results

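The insulin-like growth factor (IGF) axis was followed through 10 genes in gefitinib-resistant HCC827/GR cells and in the parental HCC827 cells. The genes were chosen by symbol and function, with earlier results of these data known. They were the binding proteins IGFBP2, IGFBP3, IGFBP4, IGFBP6 and IGFBP7, the receptors IGF1R, IGF2R and INSR, and the adaptors IRS1 and IRS2. All 10 were found among the 37181 entries of the expression table. Where a symbol had several entries the one with the highest mean over the 5 libraries was taken, which concerned IGF1R and IGF2R, and the other 8 symbols had 1 entry. HCC827 is an established human lung adenocarcinoma cell line, and an exon 19 deletion (of EGFR) is given as the genotype of both groups. HCC827/GR cells were derived from it by rising doses of gefitinib, an inhibitor of the EGFR kinase, over more than 6 months. RNA-sequencing was available for replicates 1, 2 and 3 of HCC827/GR and replicates 2 and 3 of HCC827, and the comparison asked how the resistant cells differ from their parents. HCC827/GR is a single derived line, and no source states that the replicates were separate cultures, so the p-values measure only the spread between these libraries, which may be technical.

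IGF1 and IGF2 are secreted growth factors that bind the tyrosine kinase receptor IGF1R, while insulin binds its close relative INSR, and the activated receptors dock IRS1 and IRS2, which pass the signal to PI3K, AKT and mTOR. IGF2R has no kinase and takes IGF2 into the cell for degradation. The IGF binding proteins hold the ligands outside the cell, and proteases that cut them set the ligands free. In lung cancer the IGF1 receptor is known as a parallel route to the pathways that EGFR drives.

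Expression was given in FPKM, a level scaled by transcript length and library size. Of the members, 9 reached the mean of 0.5 FPKM required for the test, and 4 of them (44.4%) differed between the cell lines at a Benjamini-Hochberg adjusted p under 0.05 in limma. IGFBP7, IGF1R and INSR rose and IGFBP3 fell in HCC827/GR. Among all 16189 entries tested, 11.0% passed in either direction, 5.26% of them upward and 5.71% downward. The groups did not overlap for 7 of the 9 members, against 46.3% of all entries, and 6 of these members were higher (background 22.8%) and 1 lower (background 23.4%). With a second rule, a change of 2-fold or more in either direction on the log2(FPKM + 1) scale and an unadjusted p under 0.05, IGFBP7 and IGF1R passed upward and IGFBP3 downward. This rule took 6.94% of all entries, 2.96% upward and 3.97% downward. The linear model of Ballgown, the package named in the methods, was refitted here to the deposited values. No member passed its adjusted test, 4 had an unadjusted p under 0.05, and 15 of all entries passed the adjusted test. This refit is not the study's own output, and its adjusted p-values differ from those the paper reports. As the members were chosen with earlier results of these data known, comparisons of them with all entries are descriptions only. The median log2 fold change of the 9 members was 0.58, and that of all entries tested was 0.0014. These are log2 differences of FPKM + 1, and the added 1 shrinks them where levels are low. With 3 libraries against 2, an exact permutation test of 1 gene cannot give a p below 0.1.

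The DNA just upstream of the RefSeq start sites of 3 of the genes that changed is given to place them in the genome and to compare their base composition. The sequences are the 250 bases before the RefSeq start in GRCh38.p14, 5′ to 3′ on the strand of the gene, and RefSeq entries were matched for 9 of the 10 members (not IGFBP7). Capitals mark matches, on either strand, to the GC box GGGCGG, the TATA box TATAAA, the FOXO motif GTAAACA, the AP-1 motif TGANTCA or the E-box CACCTG that ZEB factors can bind, and neighbouring matches may overlap. The IGFBP3 window lies at chr7:45921273-45921522 on the minus strand, the IGF1R window at chr15:98648289-98648538 on the plus strand and the INSR window at chr19:7294415-7294664 on the minus strand.
IGFBP3: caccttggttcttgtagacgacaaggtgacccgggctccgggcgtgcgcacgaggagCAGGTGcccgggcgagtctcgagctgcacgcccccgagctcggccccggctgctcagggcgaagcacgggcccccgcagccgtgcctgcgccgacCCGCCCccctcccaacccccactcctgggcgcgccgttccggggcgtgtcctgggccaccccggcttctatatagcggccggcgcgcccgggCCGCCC
IGF1R: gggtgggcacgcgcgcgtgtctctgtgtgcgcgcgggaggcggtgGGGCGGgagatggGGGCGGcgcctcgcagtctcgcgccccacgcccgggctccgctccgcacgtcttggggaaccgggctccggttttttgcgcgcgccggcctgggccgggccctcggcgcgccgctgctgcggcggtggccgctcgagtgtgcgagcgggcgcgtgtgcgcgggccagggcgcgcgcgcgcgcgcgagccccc
INSR: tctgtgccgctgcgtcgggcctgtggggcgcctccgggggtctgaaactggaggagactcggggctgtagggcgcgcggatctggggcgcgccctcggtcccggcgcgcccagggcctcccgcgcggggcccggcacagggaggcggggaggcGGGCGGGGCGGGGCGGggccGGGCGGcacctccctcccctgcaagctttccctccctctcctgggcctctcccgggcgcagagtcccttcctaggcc
All 3 windows were rich in G and C, with 76% for IGFBP3, 81.2% for IGF1R and 78.4% for INSR, where the median of the 35116 RefSeq promoters was 58%. Members that were not called had 80.8% (IRS1), 79.2% (IGF2R), 76.4% (IRS2), 71.6% (IGFBP4) and 61.2% (IGFBP6), and untested IGFBP2 had 56.8%. A high share was therefore not particular to the called genes. The IGF1R window held 48 CpG dinucleotides, more than 99.7% of the promoters, whose median was 11. The IGFBP3 window held 32 and the INSR window 28. Members that were not called held 42 (IRS2), 39 (IRS1), 33 (IGF2R), 24 (IGFBP4) and 9 (IGFBP6). GC boxes numbered 2, 2 and 4 in IGFBP3, IGF1R and INSR, and 42.6% of all promoters hold at least 1. In members not called they numbered 6 (IGF2R), 5 (IRS2), 4 (IRS1), 1 (IGFBP4) and 1 (IGFBP6). Many CpG or GC boxes were therefore not particular to the called genes either. The IGFBP3 window also held 1 match to CACCTG, found in 17.5% of all promoters, and none of the 3 held the TATA, FOXO or AP-1 letters, found in 10.7%, 2.98% and 6.57%. CACCTG also occurred in the windows of IGFBP2, IGFBP6 and IGF2R. A match is a run of letters and was not tied to binding of any factor here.

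Among the binding proteins, HCC827 cells had mostly IGFBP3 and HCC827/GR cells mostly IGFBP7 or IGFBP1 mRNA. IGFBP3 carries most of the IGF in blood and also acts on cells apart from the ligands. Its gene lies on chromosome 7 from 45912245 to 45921874 on the minus strand (GENCODE 29, GRCh38). The level of IGFBP3 was 38.7 and 42.0 FPKM in HCC827 replicates 2 and 3, and 8.17, 4.52 and 7.32 FPKM in HCC827/GR replicates 1, 2 and 3. Every HCC827/GR library was thus below both HCC827 libraries, and the mean fell from 40.3 ± 2.38 FPKM (SD, n = 2) to 6.67 ± 1.91 FPKM (SD, n = 3), a ratio of 6.05. The log2 fold change was -2.46 (standard error 0.245, 95% confidence interval -3.10 to -1.83, limma adjusted p = 0.0102), and only 0.426% of the entries tested had a lower one. The exact permutation p was 0.1, the smallest the design allows. Without HCC827 replicate 2 the adjusted p became 0.0703, and without replicate 3 it became 0.0685.

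IGFBP7 binds IGFs weakly, binds insulin as well, and is found in extracellular matrix and vessel walls. The gene lies on chromosome 4 from 57030773 to 57110385 on the minus strand (GENCODE 29, GRCh38). IGFBP7 stood at 1.48 and 1.54 FPKM in HCC827 and at 35.9, 35.7 and 14.2 FPKM in HCC827/GR replicates 1, 2 and 3. The groups were far apart, and within HCC827/GR the replicates 1 and 2 were close together while replicate 3 was lower. The mean rose from 1.51 ± 0.041 FPKM (SD, n = 2) to 28.6 ± 12.5 FPKM (SD, n = 3), a ratio of 19.0. Its log2 fold change of 3.45 (standard error 0.44, 95% confidence interval 2.30 to 4.60, adjusted p = 0.0162 in limma) was the 15th highest of the entries tested. The exact permutation test of the mean difference gave p = 0.2. Leaving out HCC827/GR replicate 3 gave 3.88 with an adjusted p of 0.0117. Leaving out HCC827 replicate 2 or 3, or HCC827/GR replicate 1 or 2, kept the fold change between 3.24 and 3.47 and moved the adjusted p to 0.105, 0.0965, 0.0604 and 0.0554, in that order.

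Of the other binding proteins, IGFBP4 and IGFBP6 did not pass the test and IGFBP2 was too low for it. IGFBP4, which blocks IGF action until it is cut by the protease PAPPA, was at 2.11 and 12.9 FPKM in HCC827 and at 4.33, 2.43 and 3.87 FPKM in HCC827/GR. The HCC827 libraries lay on both sides of all HCC827/GR libraries and differed 6.12-fold from each other. The log2 fold change of IGFBP4 was -0.56 (standard error 0.67, adjusted p = 0.653), and it was 0.52 without HCC827 replicate 3 and -1.64 without HCC827 replicate 2. IGFBP6, which prefers IGF2, was at 7.18 and 7.41 FPKM in HCC827 and at 9.16, 3.38 and 10.1 FPKM in HCC827/GR, with replicate 2 below and the other libraries above the parental values. Its log2 fold change was -0.07 (standard error 0.45, 95% confidence interval -1.23 to 1.09, adjusted p = 0.942), and without HCC827/GR replicate 2 it was 0.36. IGFBP2, often abundant in embryonal and tumour tissue, was at 0.113 and 0.188 FPKM in HCC827 and at 0.0488, 0.0443 and 0.0291 FPKM in HCC827/GR. The HCC827/GR libraries were all below the HCC827 ones, a difference that was not tested.

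**Figure D1:**
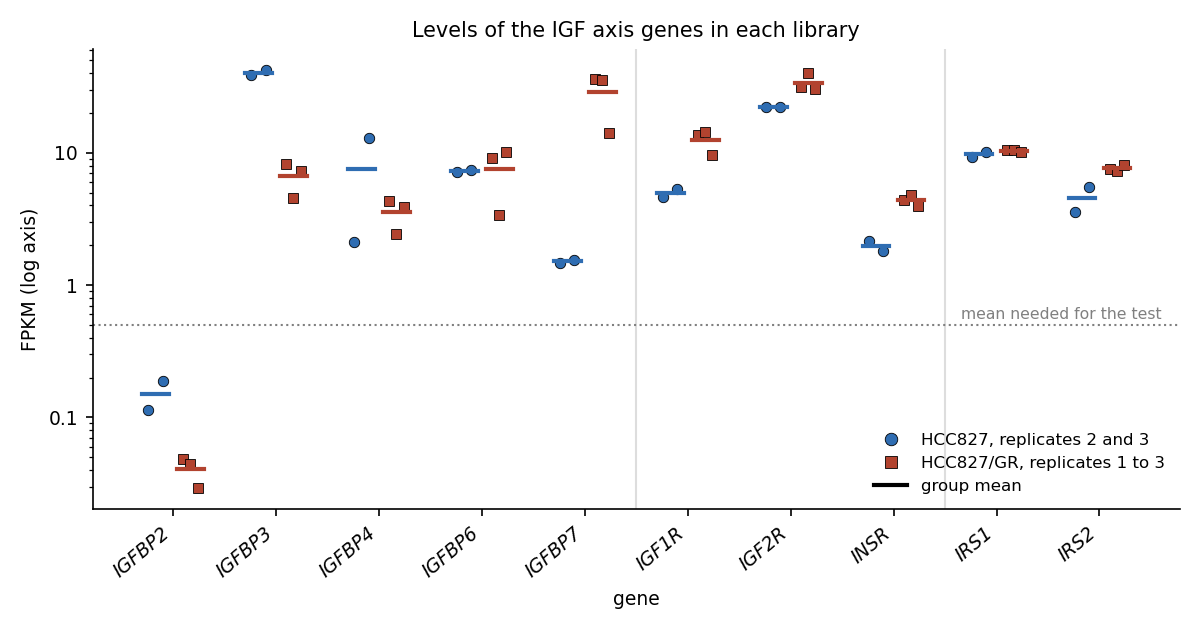
FPKM (log axis) of the 10 members in each library, with HCC827 as circles, HCC827/GR as squares and group means as lines; the dotted line marks the mean of 0.5 FPKM needed for the test. IGFBP3 was near 40.3 FPKM on average in HCC827 and 6.67 in HCC827/GR, IGFBP7 was at 1.51 and 28.6, and IGFBP2 lay below the line.

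The mRNA of IGFBP1 to IGFBP7 was also summed within each library, a description chosen after the values were seen and carrying no test. The sum was 59.8 and 72.7 FPKM in HCC827 and 67.2, 67.1 and 62.8 FPKM in HCC827/GR, so that the HCC827/GR libraries lay between the HCC827 ones while the composition differed. IGFBP3 took 64.7% and 57.8% of the sum in HCC827 and 12.2%, 6.74% and 11.7% in HCC827/GR. IGFBP7 took 2.47% and 2.11% in HCC827 and 53.5%, 53.2% and 22.6% in HCC827/GR. In HCC827/GR replicate 3, where IGFBP7 was lower, IGFBP1 was the largest component with 43.4%. IGFBP1, a binding protein known to be regulated by insulin, took 14.2% and 31.4% in HCC827/GR replicates 1 and 2, and 17.1% and 11.9% in HCC827. Since IGFBP7 binds IGFs weakly, the sum was taken again for IGFBP1 to IGFBP6 alone. It was then 58.3 and 71.2 FPKM in HCC827 and lower, at 31.2, 31.4 and 48.6 FPKM, in HCC827/GR.

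Of the receptors, IGF1R and INSR rose in HCC827/GR, and IGF2R was higher in every HCC827/GR library without passing the adjusted test. IGF1R, the kinase that IGF1 and IGF2 activate, lies on chromosome 15 from 98648539 to 98964530 on the plus strand (GENCODE 29, GRCh38), and its level was 4.61 and 5.35 FPKM in HCC827 and 13.7, 14.3 and 9.68 FPKM in HCC827/GR. All HCC827/GR values were above both HCC827 values, and replicate 3 was the lowest of them. The mean rose from 4.98 ± 0.52 FPKM (SD, n = 2) to 12.6 ± 2.53 FPKM (SD, n = 3), a ratio of 2.53. On the log2 scale the change was 1.17 (standard error 0.19, 95% confidence interval 0.66 to 1.67, limma adjusted p = 0.0301). It stayed between 1.07 and 1.33 when any 1 library was left out, while the adjusted p was 0.148 without HCC827 replicate 2, 0.111 without HCC827 replicate 3, 0.0975 without HCC827/GR replicate 1, 0.0837 without HCC827/GR replicate 2 and 0.0301 without HCC827/GR replicate 3. A second IGF1R entry held 1.41 FPKM in HCC827 replicate 2 and 0.428 FPKM in HCC827/GR replicate 2 and was listed at 0 elsewhere. With both entries summed the log2 fold change was 1.02 and the adjusted p 0.0428.

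INSR, the insulin receptor, which can also pair with IGF1R in hybrid receptors, lies on chromosome 19 from 7112255 to 7294034 on the minus strand (GENCODE 29, GRCh38). The level of INSR was 2.15 and 1.82 FPKM in HCC827 and 4.43, 4.75 and 3.96 FPKM in HCC827/GR. The values were close within each group and did not overlap, with means of 1.99 ± 0.23 FPKM (SD, n = 2) and 4.38 ± 0.40 FPKM (SD, n = 3). The log2 fold change of INSR was 0.85 (standard error 0.11, 95% confidence interval 0.55 to 1.15, adjusted p = 0.0181), which is under the 2-fold mark on the log2(FPKM + 1) scale although the ratio of the means was 2.20. The adjusted p was 0.0742 without HCC827 replicate 2, 0.0887 without HCC827 replicate 3, 0.0748 and 0.0617 without HCC827/GR replicates 1 and 2, and 0.0432 without HCC827/GR replicate 3. IGF1R exceeded INSR in every library, by 2.14 and 2.93 times in HCC827 and by 3.10, 3.02 and 2.44 times in HCC827/GR. These ratios overlapped between the groups, and the sum of both receptors was 6.76 and 7.17 FPKM in HCC827 and 18.1, 19.1 and 13.6 FPKM in HCC827/GR.

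IGF2R, the receptor that clears IGF2 and sorts lysosomal enzymes, had 22.2 and 22.1 FPKM in HCC827 and 31.3, 39.9 and 30.4 FPKM in HCC827/GR. Replicate 2 of HCC827/GR was the highest, and no HCC827/GR value reached down to the parental level. The log2 fold change of IGF2R was 0.58 (standard error 0.15, 95% confidence interval 0.20 to 0.96, adjusted p = 0.0781 in limma). Relative to IGF1R, the IGF2R level was 4.81 and 4.13 times as high in HCC827 and 2.28, 2.78 and 3.14 times as high in HCC827/GR, so the ratio was lower in every HCC827/GR library. The second IGF2R entry was listed at 0 in all 5 libraries.

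EGFR, the target of gefitinib, was set beside IGF1R. The level of EGFR was 70.8 and 56.4 FPKM in HCC827 and 7.82, 5.78 and 3.52 FPKM in HCC827/GR (log2 fold change -3.31, adjusted p = 0.00926 in limma). The EGFR mean was 11.15 times as high in HCC827, and the IGF1R mean 2.53 times as high in HCC827/GR, so both changes enter their ratio. The ratio of IGF1R to EGFR mRNA was 0.0651 and 0.0949 in HCC827 and 1.75, 2.48 and 2.75 in HCC827/GR. IGF1R was therefore the less abundant of the pair in both parental libraries and the more abundant in all 3 resistant ones. IGFBP3 and EGFR lie on the same chromosome, 9.1 Mb apart, and both were lower in HCC827/GR. IGFBP1 lies 18.6 kb from IGFBP3 on the opposite strand and was not called. Whether position has a part in these levels was not tested. IGFBP1 stood at 10.2 and 8.63 FPKM in HCC827 and 9.54, 21.0 and 27.2 FPKM in HCC827/GR (log2 fold change 0.85, standard error 0.45, adjusted p = 0.305), with replicate 1 inside the parental range. The log2 fold change of IGFBP1 was 1.26 without HCC827/GR replicate 1 and 0.55 without HCC827/GR replicate 3.

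The adaptors did not pass the test. IRS1, the adaptor best known from muscle and fat, was at 9.36 and 10.04 FPKM in HCC827 and at 10.4, 10.5 and 10.1 FPKM in HCC827/GR. All 5 values lay close together, and the log2 fold change of IRS1 was 0.08 with a 95% confidence interval of -0.14 to 0.31 (standard error 0.086, adjusted p = 0.598). IRS2, the adaptor best known from liver and pancreatic beta cells, was at 3.57 and 5.53 FPKM in HCC827 and at 7.55, 7.21 and 8.05 FPKM in HCC827/GR. Both parental values were below all resistant ones but apart from each other, and the log2 fold change of IRS2 was 0.65 (standard error 0.18, 95% confidence interval 0.19 to 1.11, adjusted p = 0.0915). It was 0.40 without HCC827 replicate 2 and 0.91 without HCC827 replicate 3. The ratio of IRS1 to IRS2 was 2.62 and 1.81 in HCC827 and 1.38, 1.46 and 1.25 in HCC827/GR.

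Ordered by mean level, IGFBP3, IGF2R and IRS1 led the members in HCC827, and IGF2R, IGFBP7 and IGF1R led them in HCC827/GR. In HCC827 each library's IGFBP3 exceeded every IGF2R value, which in turn exceeded every IRS1 value, whereas the ranges overlapped for IRS1 with IGFBP4, IGFBP4 with IGFBP6 and IGF1R with IRS2. IGFBP7 was next to last in HCC827, above IGFBP2. In HCC827/GR the ranges of neighbours overlapped from IGF2R down to IGFBP4, except that every IRS1 value was above every IRS2 value. IGFBP2 was last in both, and IGFBP4 was above it in every library.

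**Figure D2:**
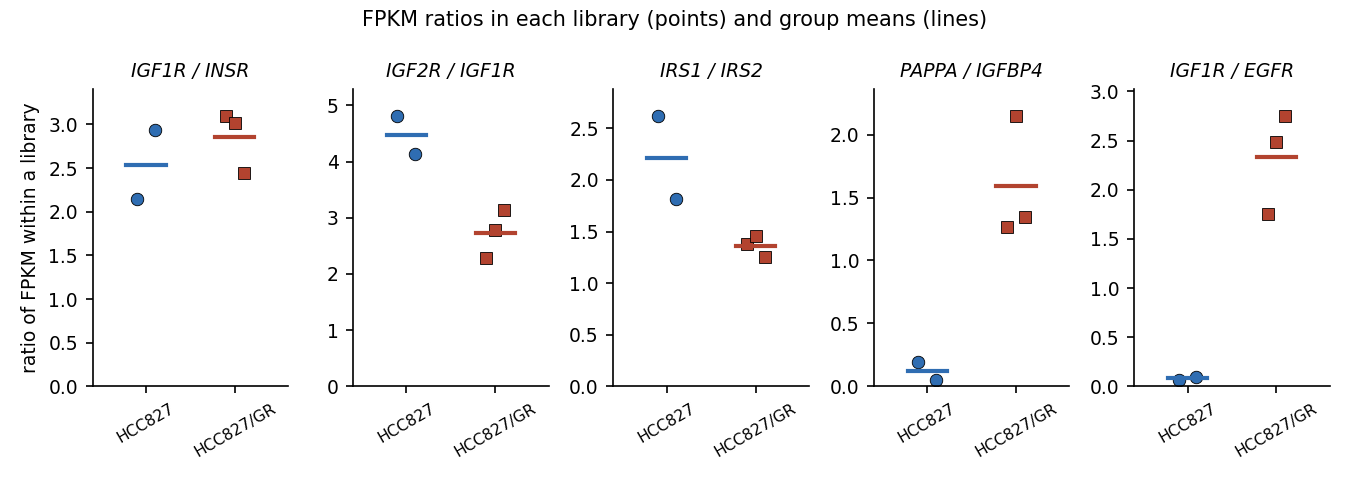
Ratios of FPKM within each library for 5 gene pairs, with HCC827 as circles, HCC827/GR as squares and group means as lines. The IGF1R to INSR ratios of the groups overlap, between 2.14 and 3.10, while the IGF1R to EGFR ratio is 0.0651 and 0.0949 in HCC827 and between 1.75 and 2.75 in HCC827/GR.

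The ligands were hardly present. IGF1 was listed at 0 in HCC827/GR replicates 1 and 2 and was at 0.0038 FPKM in replicate 3, and it was at 0.055 and 0.041 FPKM in HCC827. IGF2 was at 0.507 and 0.0734 FPKM in HCC827 and at 0.0403, 0.0236 and 0.0850 FPKM in HCC827/GR. Both were below the mean needed for the test, and insulin (INS) was not analysed here.

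A list of 55 other genes of the pathway, also chosen with earlier results of these data known, was read beside the members. Of these, 44 were tested, 8 were below the minimum and 3 (INS, PIK3R2 and RPS6KB1) were not analysed here. In limma 6 rose and 2 fell (18.2%), against 11.0% of all entries tested, and the median log2 fold change was 0.086. By role, the list's calls were 3 of 6 tested proteases and protease inhibitors, 2 of 9 adaptors and receptor inhibitors and 3 of 21 genes of the PI3K-AKT-mTOR relay. No tested gene was called among 2 further binding proteins (IGFBP1 and IGFALS), 3 IGF2 mRNA-binding proteins and 3 FOXO factors. The IGFALS and FOXO1 entries each join transcripts of 2 annotated genes. By transcript number these entries were assigned to SPSB3 and LINC00598, so their levels may not be those of IGFALS and FOXO1. The entries of PTPN1 (an inhibitor of the receptors), PDPK1 and GSK3A (relay) held only assembled transcripts without an Ensembl identifier. Their levels may likewise not be those of the named genes.

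The 3 called proteases were all higher in HCC827/GR. PAPPA, the metalloprotease that cuts IGFBP4, was at 0.413 and 0.652 FPKM in HCC827 and at 5.49, 5.23 and 5.21 FPKM in HCC827/GR. The PAPPA groups were far apart with little spread within HCC827/GR, and the log2 difference came to 2.05 (standard error 0.11, limma adjusted p = 0.00255). The ratio of PAPPA to IGFBP4, its substrate, was 0.196 and 0.0504 in HCC827 and 1.27, 2.15 and 1.35 in HCC827/GR. HTRA1, a secreted serine protease that can cut IGF binding proteins, was at 3.84 and 3.001 FPKM in HCC827 and at 6.65, 6.45 and 6.10 FPKM in HCC827/GR (log2 fold change 0.75, standard error 0.12, adjusted p = 0.0268). CTSD, the lysosomal protease cathepsin D, was at 33.0 and 31.9 FPKM in HCC827 and at 58.7, 64.4 and 56.0 FPKM in HCC827/GR (log2 fold change 0.86, standard error 0.10, adjusted p = 0.0137), in an entry that joins transcripts of 3 annotated genes. PAPPA kept its call with any 1 library left out (adjusted p at most 0.0259). HTRA1 lost it whichever library was left out (0.0555 to 0.0941), and CTSD lost it without HCC827 replicate 2 (0.0692), HCC827 replicate 3 (0.0678) or HCC827/GR replicate 1 (0.0611). The PAPPA inhibitors STC1 and STC2 did not pass, the log2 fold change being 0.10 for STC1 (adjusted p = 0.701) and 0.61 for STC2 (adjusted p = 0.601). Without HCC827 replicate 3 these were 0.0072 for STC1 and -0.026 for STC2, and without HCC827 replicate 2 they were 0.20 and 1.24.

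Close to the receptors, GRB14, an adaptor that binds the insulin receptor and inhibits its kinase, fell. GRB14 was at 6.45 and 4.62 FPKM in HCC827 and at 1.75, 1.82 and 1.91 FPKM in HCC827/GR (log2 fold change -1.20, standard error 0.15, adjusted p = 0.0148). Its relative GRB10 was not called and had a log2 fold change of 0.46 (adjusted p = 0.108). NEDD4, a ubiquitin ligase that acts on IGF1R through GRB10, was at 11.1 and 12.1 FPKM in HCC827 and at 21.9, 16.99 and 18.9 FPKM in HCC827/GR (log2 fold change 0.68, standard error 0.14, adjusted p = 0.0447). NEDD4 was not called with any 1 library left out (adjusted p 0.0702 to 0.177), and GRB14 was called only without HCC827 replicate 3 (0.0291), the others giving 0.0515 to 0.0648.

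Within the relay, PIK3CD, the delta catalytic subunit of PI3K best known from leukocytes, was at 0.426 and 0.365 FPKM in HCC827 and at 1.85, 1.62 and 1.40 FPKM in HCC827/GR, a rise of 0.91 on the log2 scale (adjusted p = 0.0208 in limma). PHLPP1, a phosphatase of AKT, was at 4.49 and 4.90 FPKM in HCC827 and at 3.30, 3.12 and 2.91 FPKM in HCC827/GR, and fell (log2 fold change -0.47, standard error 0.096, adjusted p = 0.0475). With 1 library left out, PIK3CD kept its call only without HCC827/GR replicate 3 (0.0454, otherwise 0.0723 to 0.0894), and PHLPP1 lost its call in each case (0.112 to 0.159). The other 18 tested genes of the relay, among them PIK3CA and MTOR, were not called.

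**Figure D3:**
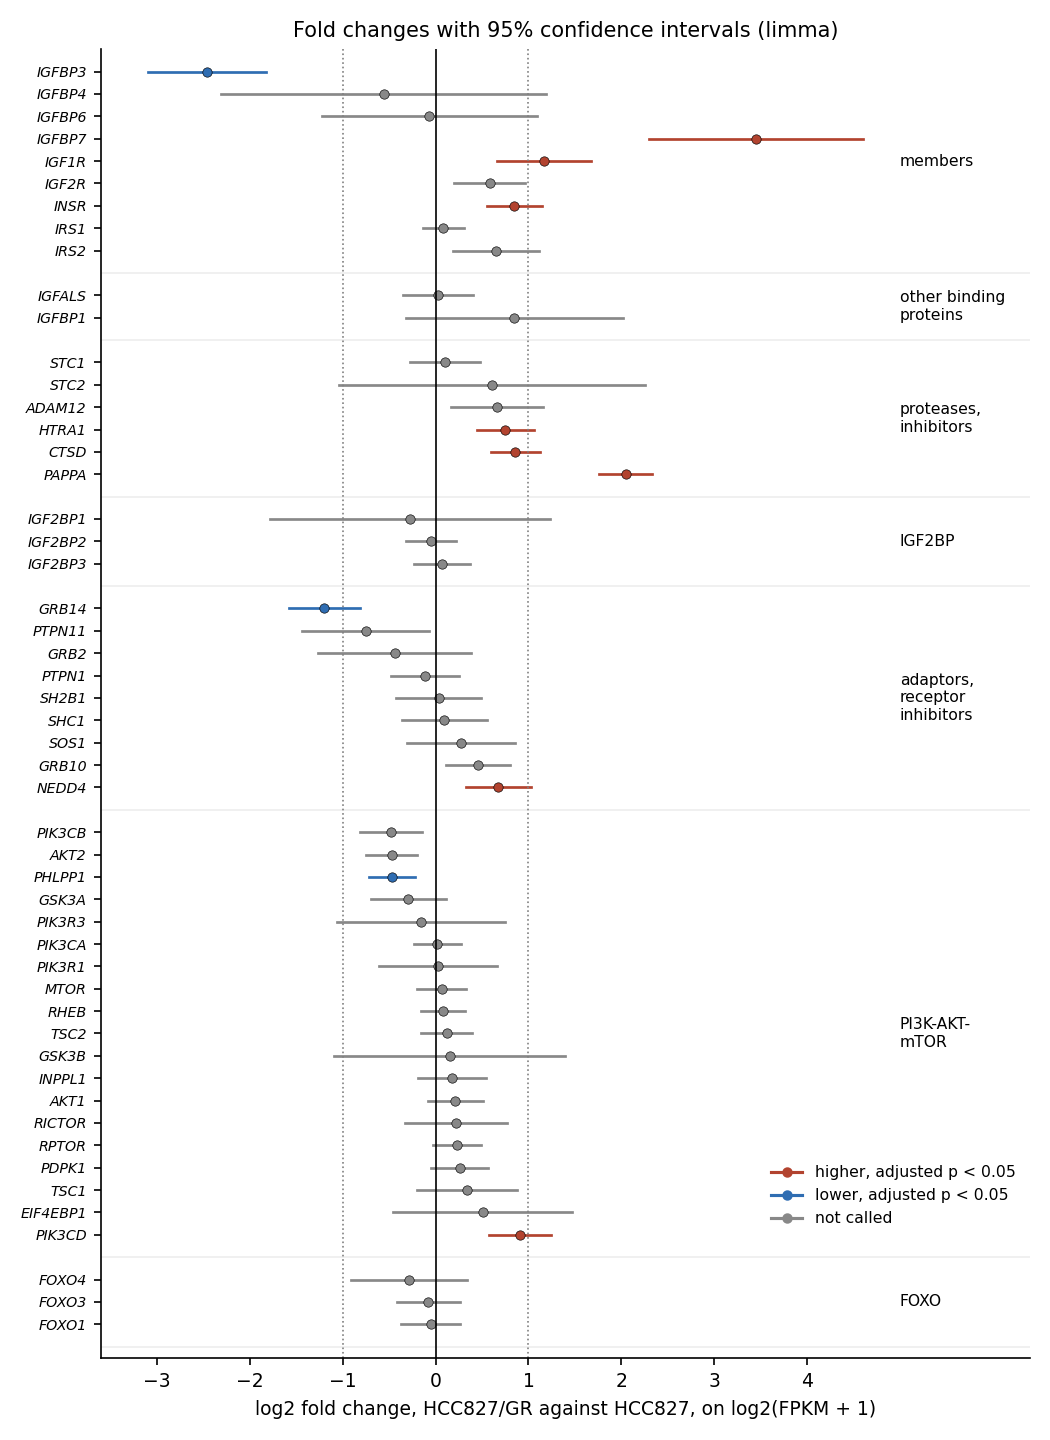
Log2 fold changes of HCC827/GR against HCC827 on log2(FPKM + 1) with unadjusted 95% confidence intervals from limma for the 9 tested members and 42 of the 44 tested genes of the pathway list, grouped by role; dotted lines mark a 2-fold change, and colour marks an adjusted p under 0.05. Calls run from -2.46 for IGFBP3 to 3.45 for IGFBP7, and most genes of the relay lie near 0.

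Across the 5 libraries, protein-coding genes took between 67.2% and 79.2% of the FPKM and small non-coding RNAs between 5.37% and 19.2%, and these shares did not separate the cell lines. Read depth is unknown from FPKM, and low values gave only a rough relative depth of 0.917 to 1.25 against HCC827/GR replicate 1. In bulk RNA, fewer cells of a type and less RNA per cell cannot be told apart. Markers of epithelial cells moved with the groups: 5 of 7 fell (background 5.71%). The groups did not overlap for any of the 7, all lower in HCC827/GR (background 23.4%). Their summed level was 1146 to 1255 FPKM in HCC827 and 483 to 615 FPKM in HCC827/GR. CLDN7, among those called, lay in an entry that joins transcripts of 5 annotated genes and was assigned to CTDNEP1 by transcript number. The entry of the lung epithelial factor NKX2-1 fell as well (log2 fold change -1.64, limma adjusted p = 0.0115). It joins transcripts of 3 annotated genes and was assigned to SFTA3 by transcript number, so the fall may not be that of NKX2-1. Of the other lung epithelial markers, SFTPB was below the minimum and NAPSA was not analysed here. Of 7 fibroblast markers, 5 were below the minimum and the other 2 did not pass. The sum of all 7 was 3.33 to 3.44 FPKM in HCC827 and 2.72 to 3.06 FPKM in HCC827/GR. PDGFRA, the largest part of that sum, lay in an entry that joins transcripts of 2 annotated genes and was assigned to FIP1L1. Leukocyte markers summed to at most 0.306 FPKM in any library. Endothelial markers apart from PECAM1 summed to at most 0.108 FPKM, and the PECAM1 entry was an unannotated assembled locus that was higher in HCC827. The part of the epithelial change in the IGF axis results was not tested.

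**Figure D4:**
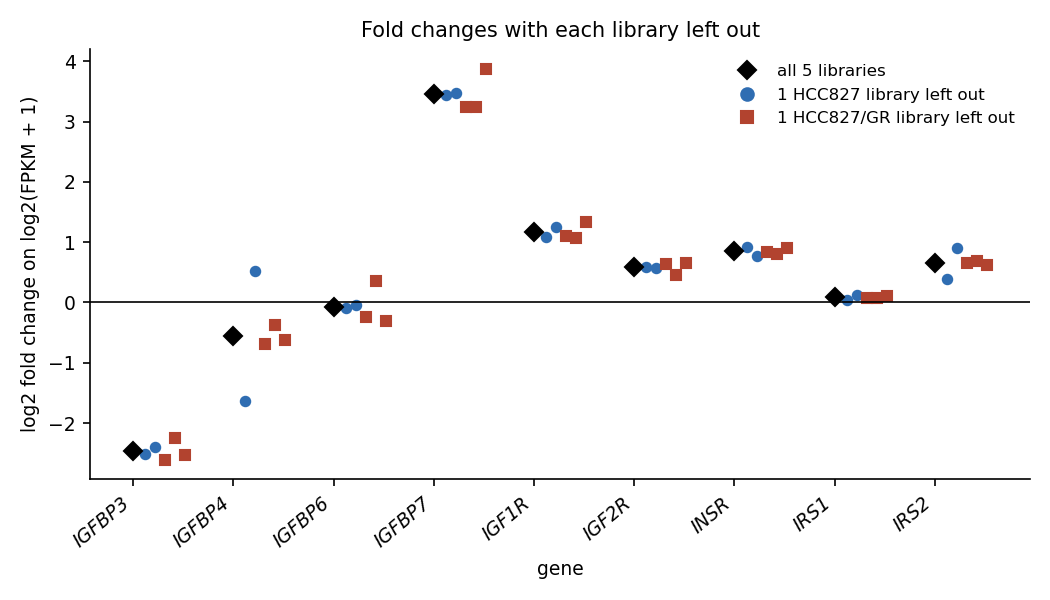
Log2 fold changes of the 9 tested members with all 5 libraries (diamonds) and with each library left out in turn (circles for an HCC827 library, squares for an HCC827/GR library). IGFBP3 stays between -2.61 and -2.24 and IGFBP7 between 3.24 and 3.88, while IGFBP4 runs from -1.64 to 0.52 and IGFBP6 crosses 0.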

How the data were processed

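RNA-sequencing of 3 HCC827/GR and 2 HCC827 libraries was examined. The authors trimmed reads with Cutadapt, checked them with FastQC, mapped them with Bowtie2 and TopHat2, assembled them with StringTie and deposited FPKM values estimated with StringTie and Ballgown. Versions are not given in the sources used here. The submitters' processing notes name hg18, and the labels describe a small-RNA library where the methods describe an rRNA-depleted one. A further 1 FPKM column matched no sample and was not used.

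Positions came from GENCODE 29 (GRCh38) through Ensembl transcript identifiers, of which 135164 of 135299 were found. Sequences came from RefSeq (GRCh38.p14). Entries averaging 0.5 FPKM or more were compared with limma 3.58.1 in R 4.3.3 (lmFit, eBayes with trend, two-sided) on log2(FPKM + 1), without rescaling, and p-values were adjusted over all 16189 entries. Values per library, sums, ratios and the two-sided exact permutation test of the difference in mean FPKM were computed with Python 3.11.15 (numpy 2.4.6, pandas 2.3.3, scipy 1.17.1, matplotlib 3.10.9). The fit was tested on simulated data. FPKM holds no read counts, so no count model was used.

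Some genes of the pathway list are counted but not reported here. The members, the pathway list and the marker lists were chosen with earlier results of these data known. All members, the ligands, EGFR and the genes of the list with an adjusted p under 0.05 were to be named. IGFBP1, IGFALS, FOXO1, STC1, STC2, GRB10, PIK3CA, MTOR, PTPN1, PDPK1 and GSK3A were named, and sums and ratios chosen, after their values were seen. The pseudocount was set to 0.1, the filter removed or raised to 1 FPKM, and the libraries rescaled by quantiles, by median ratios or over protein-coding entries. Further alternatives were no trend, the model of Ballgown, the replicate number as a block, summed entries, the ratio of mean FPKM and each library left out.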

Additional observations from a re-analysis of the deposited data

How the results depend on the processing

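Precision was limited by 5 libraries and by FPKM values without known depth. The direction of the fold changes of IGFBP3, IGFBP7, IGF1R, INSR, IGF2R, IRS1 and IRS2 was kept under every alternative run. IGFBP4 turned to 0.52 without HCC827 replicate 3 (range with 1 library left out -1.64 to 0.52). IGFBP6 turned to 0.36 without HCC827/GR replicate 2 (range -0.31 to 0.36) and to 0.052 as the log2 ratio of the mean FPKM. Fold changes were recomputed for the 9 members and the 8 called genes of the pathway list. Of these values, 190 kept direction and status (called or not), 71 kept direction and lost the call, and 3 reversed. The 190 include members that were never called: 16 values each for IGF2R, IRS1 and IRS2, 15 for IGFBP4 and 14 for IGFBP6. Of 16 values each, 12 kept the status for IGFBP3, 10 for IGFBP7, 10 for INSR and 9 for IGF1R. The ratio of mean FPKM carries no test and was judged by direction alone. The counts of calls depended on the model and on single libraries.

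With the model of Ballgown, a linear fit that shares no spread between genes, 0 members were higher and 0 lower at an adjusted p under 0.05, and 0 genes of the pathway list in either direction. At an unadjusted p under 0.05 it gave 4 of 9 members and 11 of 44 pathway genes, and 15 of all 16189 entries passed the adjusted test. With the replicate number as a block in limma the counts were likewise 0 and 0 for the members and 0 and 0 for the pathway list, with 6 members and 17 pathway genes at an unadjusted p under 0.05 and 0 entries of the whole table adjusted. Adjusted p in the block fit was 0.124 for IGFBP3, 0.143 for IGFBP7, 0.178 for IGF1R and 0.143 for INSR. The libraries share only a number: there are 2 pairs, no label ties a number to a batch, and the differences between replicates 2 and 3 correlated by 0.027 between the groups across 16189 entries.

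Leaving out 1 library gave 0 to 3 members higher, 0 to 1 lower, 2 to 4 pathway genes higher and 0 to 1 lower. The fit without an HCC827 library assumes that the lone library left varies like the others. No member was called without HCC827 replicate 2 or without replicate 3 (6 and 5 members at an unadjusted p under 0.05), and IGFBP3 alone without HCC827/GR replicate 1 or 2. Without the trend 5 pathway genes were higher and 1 lower, with entries of 1 symbol summed 6 and 1, and with quantile normalization 6 and 3, in place of 6 and 2. Without the filter 4 pathway genes were higher and 2 lower, and IGF1R was no longer called (adjusted p = 0.0684). Scalings kept the median log2 fold change of all entries within 0.025 of 0 and changed no call of a member. The causes of these changes were not tested.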
